A study of Homo sapiens and Mus musculus with 12 samples.

Results

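A set of 9 genes that mark deep-layer cortical neurons or Cajal-Retzius neurons is described here across all 12 libraries of the study: BCL11B, FOXP2, FEZF2, TBR1, RELN, LHX1, LHX5, LHX9 and TP73. They were chosen by name, as markers of these neurons, with earlier results of these data known. All 9 were found by symbol among 60675 human gene identifiers, and all 9 mouse orthologues were found by gene description among 47729 mouse identifiers. RNA-seq was done on cortical organoids, balls of tissue grown from stem cells that come to resemble the embryonic forebrain. The human comparison asks what loss of NOTCH2NL does to cortical neurogenesis, and the mouse comparison asks what its expression does. NOTCH2NL is a human gene family derived from the receptor gene NOTCH2 and acts on Notch signalling in cortical progenitors.

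The KO libraries came from H9 human embryonic stem cells with a CRISPR/Cas9 knockout of NOTCH2NL (line code H9_KO_E5del42), and the WT libraries from H9 cells with the line code H9_WT_E2del19. The labels explain neither code, so whether the WT line carries a deletion is not known here. Each had 3 libraries, taken at week 4 (day 28) from pools of 5 to 10 organoids. Both groups were differentiated in SB431542, Dorsomorphin, IWR-1-Endo and Cyclopamine, with Cyclopamine left out near the end. The N2NL libraries came from mouse 46C embryonic stem cells that overexpressed NOTCH2NL-Sh_T197I cDNA (line 46C_N2NL), and the EV libraries from 46C cells with an empty vector (line 46C_EV). Each had 3 libraries, taken on day 6 from pools of 16 organoids. Each group is 1 line, so genotype or vector cannot be told apart from line, and no label says whether the pools were separate cultures, so p-values reflect only the spread among pools, which may be technical. Each H9 KO library had 0 counts of NOTCH2NL, against 4, 5 and 3 counts in the H9 WT libraries. So few counts are a weak check of the genotype, and reads of this gene can be split with near-identical copies.

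The cortex is built with its lower layers first, and neurons of these layers project to the thalamus, brainstem and spinal cord. TBR1, FEZF2, BCL11B and FOXP2 encode transcription factors that act in them: the T-box factor TBR1 and the forkhead factor FOXP2 mark neurons that project to the thalamus, and the zinc finger factors FEZF2 and BCL11B those that project further. BCL11B and FOXP2 are also strongly expressed in projection neurons of the striatum, and FEZF2 in forebrain progenitors. Cajal-Retzius neurons form early at the surface of the cortex, many of them from the cortical hem at its edge, and secrete reelin, the product of RELN, which guides the layering of later neurons. LHX1, LHX5 and LHX9 encode LIM homeodomain transcription factors. They are expressed in Cajal-Retzius or other early cortical neurons and also in neurons of the diencephalon, hindbrain and spinal cord. TP73 encodes a transcription factor that marks hem-derived Cajal-Retzius neurons and is also needed in multiciliated cells.

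BCL11B and FOXP2 were the genes of this group past the threshold between KO and WT organoids, so the bases before their transcription starts are shown. They are given 5′ to 3′ on the gene's strand, as the 250 bases before each start that RefSeq lists for GRCh38.p14. The BCL11B stretch is chr14:99272198-99272447 on the minus strand, and lies outside the gene as GENCODE release 29 places it. The FOXP2 stretches are chr7:114414565-114414814 and chr7:114426252-114426501 on the plus strand, and both lie inside the FOXP2 gene as GENCODE places it, before starts within it. Capitals would mark the homeodomain core TAATTA, or TGGGAA on either strand, the core bound by the Notch pathway factor RBPJ, and none occurs in these stretches.
BCL11B: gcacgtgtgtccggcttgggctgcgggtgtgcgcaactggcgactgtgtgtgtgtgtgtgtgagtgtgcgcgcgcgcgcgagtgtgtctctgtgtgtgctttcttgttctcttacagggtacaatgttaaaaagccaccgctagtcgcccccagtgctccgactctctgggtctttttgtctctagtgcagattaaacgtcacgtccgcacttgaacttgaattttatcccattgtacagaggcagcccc
FOXP2, first start: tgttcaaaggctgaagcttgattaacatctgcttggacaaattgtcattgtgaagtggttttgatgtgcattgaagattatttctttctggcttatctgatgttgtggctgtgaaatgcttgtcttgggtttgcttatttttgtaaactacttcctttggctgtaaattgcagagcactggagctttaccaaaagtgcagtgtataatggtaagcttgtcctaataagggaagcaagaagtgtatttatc
FOXP2, second start: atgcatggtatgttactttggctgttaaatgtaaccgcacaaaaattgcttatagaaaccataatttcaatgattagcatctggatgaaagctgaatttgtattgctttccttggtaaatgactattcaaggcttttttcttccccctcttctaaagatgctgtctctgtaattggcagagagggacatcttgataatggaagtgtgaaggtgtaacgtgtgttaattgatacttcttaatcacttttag
TAATTA was found in 4.35% and TGGGAA in 20.8% of 35116 such stretches, so most promoters lack them too. The GC content was 54.8% for BCL11B and 37.6% and 35.6% for FOXP2, against a median of 58% over all stretches. A lack of these letters in this window says nothing of binding by either kind of factor.

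In human organoids, BCL11B and FOXP2 were higher in KO than in WT. The other 7 genes did not pass the test, and LHX9 was closest to it. Read counts were tested by edgeR's quasi-likelihood test across 16956 genes, and a gene is called when its Benjamini-Hochberg adjusted p is under 0.05. All 9 genes passed the filter on low counts. The 2 calls are 22.2% of the 9, against 5.50% of all genes tested. The lowest KO library exceeded the highest WT library, or the reverse, for 3 of the 9 (33.3%, BCL11B, FOXP2 and LHX9), against 28.8% of all genes tested, so the share that did not overlap was near the background. At an unadjusted p under 0.05 there were 4 (44.4%, with RELN added), against 22.8% of all genes tested. The median log2 fold change of the 9 was −0.09, against −0.00465 over all genes, with 4 above 0 and 5 below. Levels are library-scaled counts (CPM, with TMM factors), with mean ± SD of 3 libraries. The ± of a log2 fold change is an approximate standard error.

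**Figure D1:**
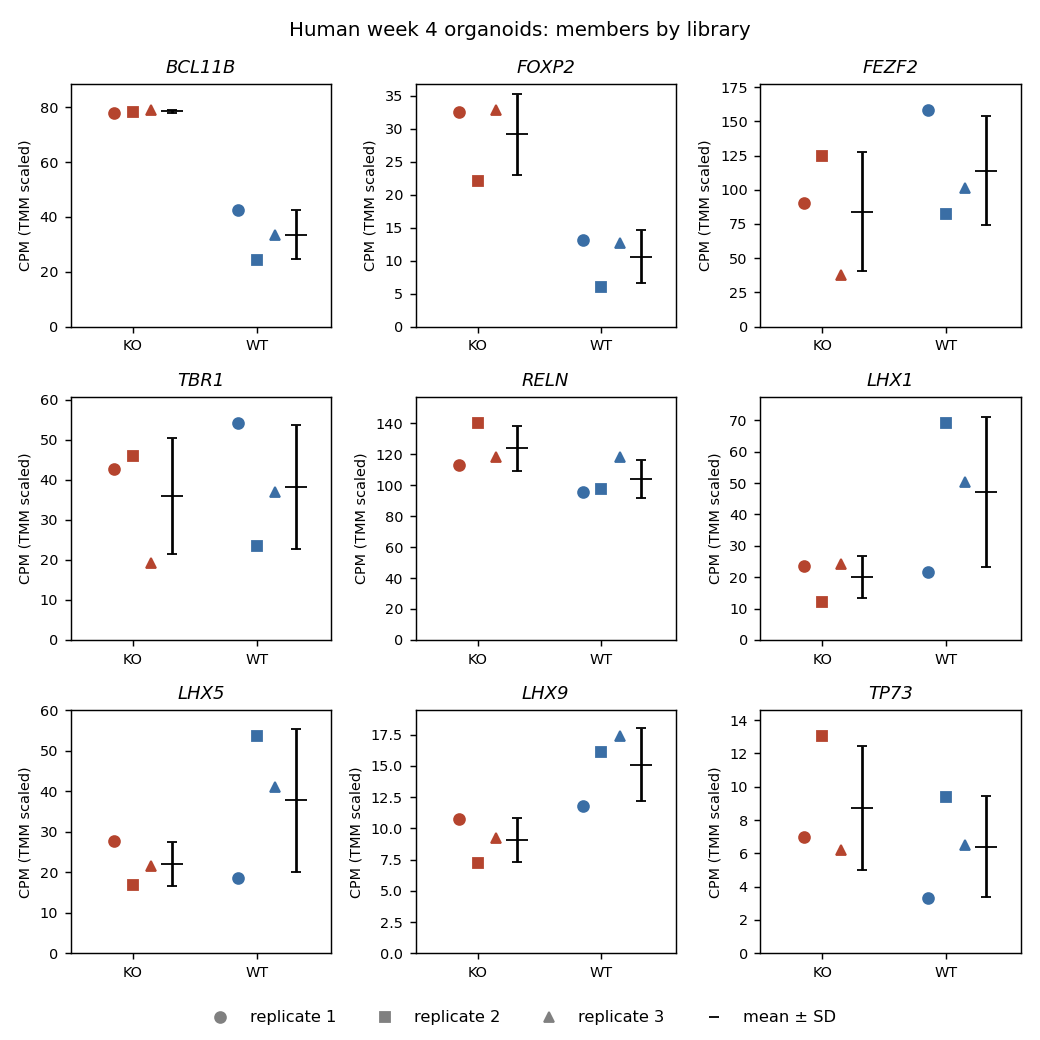
CPM (y axis, TMM scaled) of each of the 9 genes in the 3 KO libraries (left, red) and the 3 WT libraries (right, blue) of week 4 human organoids, with 1 point per library and the mean ± SD as a bar beside them. BCL11B and FOXP2 lie higher in every KO library than in any WT library, LHX9 lies lower, and the groups of the other 6 genes overlap.

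BCL11B (ENSG00000127152, chr14:99169287-99271524, minus strand, GRCh38) had 77.9, 78.4 and 79.1 CPM in the KO libraries, against 42.4, 24.4 and 33.6 CPM in the WT libraries. The KO libraries were nearly level with each other and all above the WT libraries, which spread widely. KO averaged 78.5 ± 0.616 CPM and WT 33.5 ± 8.97 CPM, a log2 fold change of 1.23 ± 0.17 (2.35-fold; adjusted p = 0.00662). The highest KO library was 1.02 times the lowest, a ratio that only 0.744% of the 12236 genes of mean CPM 5 or more undercut. In WT this ratio was 1.73, larger than in 93.2% of those genes. These values rest on 1198, 1234 and 1293 reads in KO and on 654, 401 and 506 reads in WT. Without WT replicate 3 the adjusted p was 0.0568, and BCL11B passed in the other 5 fits that left out 1 library, with log2 fold changes from 1.05 to 1.44 over the 6. The authors' deposited table gives BCL11B a log2 fold change of 1.10 with an adjusted p of 3.88e-10. For each of the 9 genes the deposited log2 fold change is smaller in size than the one fitted here. Whether the authors' fit reduced these sizes is not stated, so the 2 sets are not like measures.

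FOXP2 (ENSG00000128573, chr7:114086327-114693772, plus strand) had 32.5, 22.1 and 32.9 CPM in the KO libraries, against 13.1, 6.03 and 12.7 CPM in the WT libraries. Replicate 2 was the lowest library in both groups, and the groups did not overlap. KO averaged 29.2 ± 6.16 CPM and WT 10.6 ± 3.98 CPM, a log2 fold change of 1.46 ± 0.30 (2.75-fold; adjusted p = 0.0400). This call rested on single libraries: FOXP2 passed in 2 of the 6 fits that left out 1 library. Its adjusted p was 0.127 without KO replicate 1, 0.0988 without KO replicate 3, 0.0552 without WT replicate 1 and 0.107 without WT replicate 3, while the log2 fold change stayed between 1.18 and 1.64. In the authors' deposited table FOXP2 has a log2 fold change of 1.15 and an adjusted p of 2.05e-06.

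FEZF2 (ENSG00000153266, chr3:62369681-62374324, minus strand) had 90.2, 124 and 37.7 CPM in the KO libraries, against 159, 82.2 and 101 CPM in the WT libraries. The groups overlapped, and KO replicate 3 lay far below the other libraries. The log2 fold change was −0.44 ± 0.50 (adjusted p = 0.665). TBR1 (ENSG00000136535, chr2:161416094-161425870, plus strand) had 42.7, 46.0 and 19.3 CPM in the KO libraries, against 54.2, 23.5 and 37.0 CPM in the WT libraries. It too was lowest in KO replicate 3 and highest in WT replicate 1, and its log2 fold change was −0.09 ± 0.45 (adjusted p = 0.935). The sign for TBR1 rested on single libraries: its log2 fold change was 0.22 without KO replicate 3 and 0.25 without WT replicate 1.

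RELN (ENSG00000189056, chr7:103471784-103989516, minus strand) had 113, 140 and 118 CPM in the KO libraries, against 95.8, 97.4 and 118 CPM in the WT libraries. KO averaged 124 ± 14.5 CPM and WT 104 ± 12.4 CPM, and the lowest KO library lay below the highest WT library. The log2 fold change was 0.25 ± 0.11 (adjusted p = 0.209). RELN was the steadiest of the 9 genes within WT, where its highest library was 1.23 times its lowest. TP73 (ENSG00000078900, chr1:3652520-3736201, plus strand) had 6.96, 13.0 and 6.18 CPM in the KO libraries, against 3.30, 9.38 and 6.50 CPM in the WT libraries. Replicate 2 was the highest library in both groups, the groups overlapped, and the log2 fold change was 0.44 ± 0.42 (adjusted p = 0.586).

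LHX1 (ENSG00000273706, chr17:36936785-36944612, plus strand) had 23.7, 12.2 and 24.3 CPM in the KO libraries, against 21.8, 69.2 and 50.4 CPM in the WT libraries. WT replicate 1 lay with the KO libraries, and the WT libraries differed by 3.18 times, more than for 99.2% of the genes of mean CPM 5 or more. The log2 fold change was −1.23 ± 0.51 (adjusted p = 0.240), equal in size to that of BCL11B but with a larger error (0.51 against 0.17). LHX5 (ENSG00000089116, chr12:113462034-113472280, minus strand) had 27.7, 16.9 and 21.5 CPM in the KO libraries, against 18.7, 53.6 and 41.0 CPM in the WT libraries. It showed the same low WT replicate 1, and its log2 fold change was −0.78 ± 0.42 (adjusted p = 0.338). Without WT replicate 1, LHX5 passed the test with a log2 fold change of −1.10 (adjusted p = 0.0177), and LHX1 did not in any fit that left out 1 library (lowest adjusted p = 0.0675).

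LHX9 (ENSG00000143355, chr1:197911902-197935478, plus strand) had 10.7, 7.24 and 9.24 CPM in the KO libraries, against 11.8, 16.1 and 17.4 CPM in the WT libraries. All KO libraries lay below all WT libraries, although KO replicate 1 and WT replicate 1 were close. KO averaged 9.07 ± 1.75 CPM and WT 15.1 ± 2.92 CPM, a log2 fold change of −0.73 ± 0.20 (adjusted p = 0.0602). LHX9 passed the test without WT replicate 1 (adjusted p = 0.0165), with DESeq2 on the same genes (0.0196) and with no filter on low counts (0.00223). Leaving out the filter changed the error estimates themselves, so that fit is not a like check. The error of FOXP2 was 0.16 there instead of 0.30, and that of FEZF2 was 0.56 instead of 0.50. The authors' deposited table, too, has LHX9 past the threshold, with a log2 fold change of −0.61 and an adjusted p of 0.0208.

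**Figure D2:**
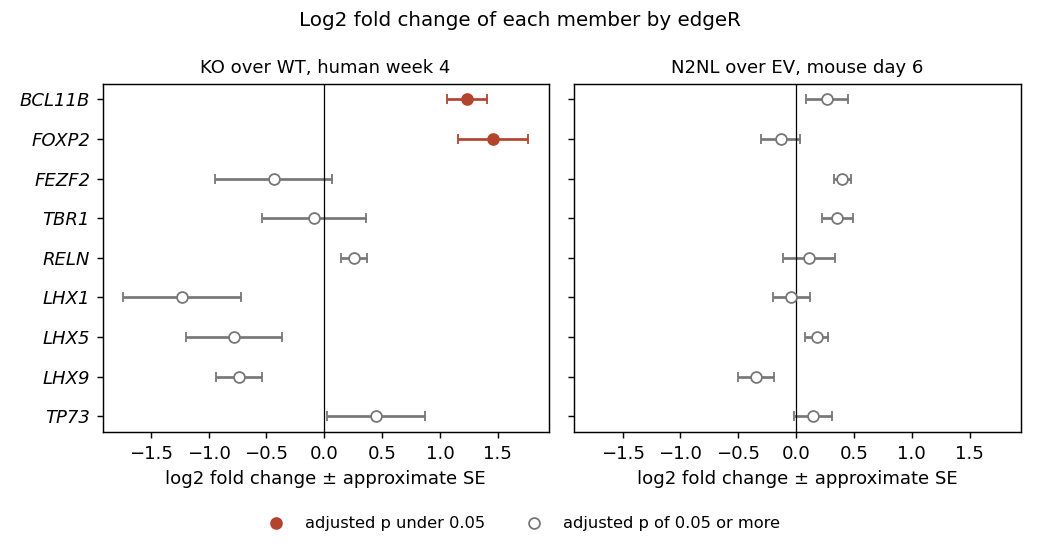
Log2 fold change ± approximate SE (x axis) of each gene, KO over WT in human organoids (left) and N2NL over EV in mouse organoids (right), with filled points for adjusted p under 0.05. BCL11B at 1.23 and FOXP2 at 1.46 are the filled points in human, LHX1 at −1.23 has the widest error of the genes far from 0, and no mouse gene is filled.

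A further 3 transcripts named after these genes were also measured. LHX1-DT, a long noncoding gene on the strand opposite LHX1 whose start lies 123 bases from that of LHX1, had 6.37, 3.43 and 7.59 CPM in the KO libraries, against 7.91, 22.1 and 15.8 CPM in the WT libraries. As for LHX1, WT replicate 2 was the highest library and KO replicate 2 the lowest, but here the groups did not overlap. Its log2 fold change was −1.39 ± 0.43 (adjusted p = 0.119). DESeq2 on the same genes gave LHX1-DT an adjusted p of 0.00231, and the authors' deposited table gives 0.00192. LHX5-AS1 overlaps LHX5 by 278 bases on the opposite strand. It had 22.2, 14.6 and 19.1 CPM in the KO libraries, against 19.4, 42.7 and 30.8 CPM in the WT libraries, and a log2 fold change of −0.73 ± 0.30 (adjusted p = 0.201). For LHX5-AS1, DESeq2 gave an adjusted p of 0.0469, and the authors' deposited table gives 0.0472. TP73-AS1 overlaps TP73 by 691 bases, and had 59.5 ± 0.150 CPM in KO and 56.5 ± 2.28 CPM in WT, with a log2 fold change of 0.07 ± 0.08 (adjusted p = 0.646). The library kit kept strand, but how strand was treated when reads were counted is not stated in any label, so reads of overlapping opposite genes may be mixed. Genes on the opposite strand overlap 7 of the 9 genes, FEZF2 and LHX9 being the exceptions.

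Levels can be compared between genes only per length, here as CPM per kilobase of merged exons, although which transcripts were expressed is not known. FEZF2 stood highest in both groups, with 38.4 ± 19.9 in KO and 52.0 ± 18.1 in WT. BCL11B ranked 2 of 9 in KO, with 9.99 ± 0.0785, and 5 of 9 in WT, with 4.26 ± 1.14. In KO it was followed by RELN at 9.79 ± 1.14, LHX5 at 7.05 ± 1.73, LHX1 at 4.11 ± 1.40, TBR1 at 3.75 ± 1.51, FOXP2 at 1.81 ± 0.381, TP73 at 1.29 ± 0.554 and LHX9 at 0.869 ± 0.167. Neighbours in this order overlapped within 1 SD except FEZF2 with BCL11B and TBR1 with FOXP2. In WT the order after FEZF2 was LHX5 at 12.1 ± 5.66, LHX1 at 9.65 ± 4.89, RELN at 8.21 ± 0.979, BCL11B, TBR1 at 3.98 ± 1.61, LHX9 at 1.44 ± 0.280, TP73 at 0.946 ± 0.450 and FOXP2 at 0.657 ± 0.246. There, FEZF2 and LHX5, RELN and BCL11B, and TBR1 and LHX9 were the neighbours that did not overlap.

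The genes varied between libraries of 1 group in sets. TBR1 and the summed level of 11 dorsal telencephalon genes (such as EMX1, PAX6 and NEUROD6) put the 6 libraries in the same order. That sum was 1223, 1284 and 678 CPM in the KO libraries, against 1404, 679 and 896 CPM in the WT libraries. FEZF2 differed from this order by the exchange of KO replicate 1 and WT replicate 3. None of the 11 genes passed the test, with 6 above 0 and 5 below, and a median log2 fold change of 0.09. These orders are a description of 6 libraries.

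LHX1, LHX1-DT, LHX5, LHX5-AS1 and LHX9 all had their lowest level in KO replicate 2 and their highest levels in WT replicates 2 and 3. The summed level of 12 midbrain, hindbrain and spinal cord genes shared both features, with 188, 107 and 344 CPM in the KO libraries, against 260, 520 and 385 CPM in the WT libraries. All 9 of these genes that could be tested were below 0, with a median log2 fold change of −0.84. PAX8, a paired-box factor of the midbrain-hindbrain border and of spinal interneurons, fell to 9.75 ± 3.59 CPM in KO, against 39.3 ± 10.7 CPM in WT (log2 fold change −2.01 ± 0.31, adjusted p = 0.0162), a call lost without KO replicate 1 (0.0844) or WT replicate 3 (0.0566). LBX1, a factor of dorsal spinal interneurons, had 23.1 ± 11.2 CPM in KO and 48.6 ± 11.9 CPM in WT (adjusted p = 0.219). EN1 had no counts in KO and a mean of 0.0221 CPM in WT. All 6 diencephalon genes tested were also below 0, with none past the threshold, a median of −0.82 and sums of 52.5 to 70.8 CPM in KO and 68.7 to 121 CPM in WT. NKX2-2 was at 0 in all 6 libraries. The part of these other regions' cells in the levels of the LHX genes was not tested. In such pooled tissue, fewer cells of a type and less RNA per cell cannot be told apart.

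**Figure D3:**
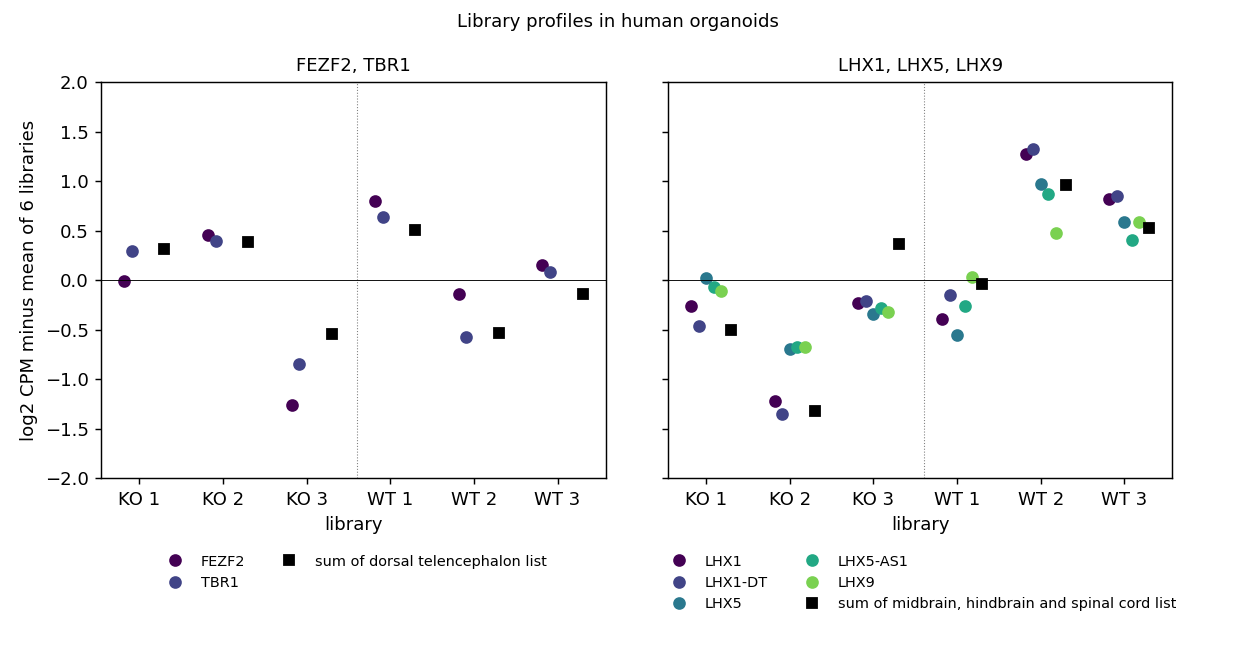
Log2 CPM minus the mean of the 6 libraries (y axis) for FEZF2 and TBR1 (left) and for LHX1, LHX5, LHX9 and 2 transcripts beside them (right), with 1 column per human library, KO left of WT, and black squares for the summed CPM of a list of region markers. TBR1 and the dorsal telencephalon sum are lowest in KO replicate 3, and the LHX transcripts and the midbrain, hindbrain and spinal cord sum are lowest in KO replicate 2 and high in WT replicates 2 and 3.

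Over all 6 libraries, BCL11B and FOXP2 followed neither of these orders. Within WT alone, both ran in the order of TBR1, FEZF2 and the dorsal telencephalon sum, highest in WT replicate 1 and lowest in WT replicate 2. An order of 3 libraries is a description only. Markers of the lateral ganglionic eminence and striatum also differed between KO and WT. Of 18 such genes, 8 rose in KO and none fell, with a median log2 fold change of 1.15, where 2.31% of all genes tested were called higher and 3.19% lower. Their summed level was 848, 780 and 1200 CPM in the KO libraries, against 443, 651 and 569 CPM in the WT libraries, and did not overlap. Within WT this sum ran in the reverse order of BCL11B and FOXP2. The largest gene of the sum in WT was MEIS2, at 292 ± 48.9 CPM, and it did not pass. Each of the 8 that rose averaged at most 7.66 CPM in WT, so the WT order of the sum says little of those 8. The homeobox gene DLX2, which directs GABAergic fate, rose to 51.4 ± 15.8 CPM in KO, against 1.34 ± 0.485 CPM in WT (log2 fold change 5.27 ± 0.32, adjusted p = 0.000241). ISL1, a LIM homeodomain factor of striatal projection neurons and a paralogue of the LHX genes, rose to 11.8 ± 5.23 CPM in KO, against 1.23 ± 0.148 CPM in WT (3.25 ± 0.34, adjusted p = 0.000756). The others that rose were DLX1 (adjusted p = 0.0135), DLX5 (0.00499), DLX6 (0.0480), SIX3 (0.000309), SP9 (0.000377) and RXRG (0.00411).

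Of these 8, DLX1 was not past the threshold without KO replicate 1 (0.0535) or WT replicate 1 (0.0517), DLX6 passed in 1 of 6 fits, that without WT replicate 2, with adjusted p from 0.0841 to 0.141 in the others, and the other 6 passed in every such fit. DLX6 is overlapped by an antisense gene. GAD2, which makes GABA, had 57.2 ± 16.2 CPM in KO and 27.3 ± 8.10 CPM in WT, without overlap (adjusted p = 0.0895 by edgeR and 0.000206 by DESeq2). GAD1, the other gene for GABA synthesis, had 56.6 ± 9.74 CPM in KO and 61.7 ± 18.3 CPM in WT, and PENK, a neuropeptide gene of striatal neurons, had 27.5 ± 9.97 CPM in KO and 33.1 ± 6.85 CPM in WT, and neither passed. Medial ganglionic eminence genes were near the floor, at 0.428 to 1.43 CPM summed in KO and 0.0609 to 0.199 CPM in WT. The part of striatal-type cells in the BCL11B and FOXP2 levels was not tested.

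Related to the summed counts of 14 pan-neuronal genes, the differences of BCL11B and FOXP2 had about the same size. BCL11B had 14.2, 17.2 and 11.8 counts per 1000 pan-neuronal counts in the KO libraries, against 8.32, 3.75 and 5.40 in the WT libraries. FOXP2 had 5.92, 4.84 and 4.91 per 1000 in the KO libraries, against 2.57, 0.925 and 2.05 in the WT libraries. Both remained without overlap, as did LHX9, with 1.64 ± 0.291 per 1000 in KO and 2.53 ± 0.246 in WT. Of the 14 pan-neuronal genes themselves, 2 fell and none rose. TUBB3, a neuronal tubulin, fell to 18.3 ± 1.48 CPM in KO, against 26.4 ± 1.45 CPM in WT (adjusted p = 0.0316), and MAPT, a microtubule-binding protein gene, fell to 313 ± 13.1 CPM in KO, against 404 ± 35.6 CPM in WT (0.0404). Among the fits that left out 1 library, both passed in that without WT replicate 1 alone, with adjusted p from 0.0859 to 0.125 and from 0.0803 to 0.185 in the others. Human TUBB3 stood far below DCX (1069 ± 219 CPM in KO), while in mouse it stood above (307 ± 16.7 and 38.7 ± 6.22 CPM in N2NL), and why was not tested. ELAVL4 had 94.8 ± 19.9 CPM in KO and 66.8 ± 2.86 CPM in WT, without overlap (adjusted p = 0.0621 by edgeR and 0.0147 by DESeq2).

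Other genes of deep-layer neurons did not move as a group. Of 12 tested, 1 rose, 1 fell and 10 did not pass, with a median log2 fold change of 0.09. LDB2, a cofactor of LIM domain factors, rose to 25.9 ± 4.18 CPM in KO, against 17.6 ± 1.23 CPM in WT (0.55 ± 0.14, adjusted p = 0.0484), but passed in none of the 6 fits that left out 1 library (0.0663 to 0.151). TSHZ3, a zinc finger factor, fell to 31.0 ± 2.50 CPM in KO, against 43.8 ± 2.34 CPM in WT (−0.50 ± 0.10, adjusted p = 0.0247), and passed without WT replicate 1 or 2 but not in the other 4 fits (0.0632 to 0.109). SOX5, a factor of early-born corticofugal neurons, had 46.3 ± 8.46 CPM in KO and 49.8 ± 21.7 CPM in WT, and TLE4, a corepressor of corticothalamic neurons, 82.8 ± 5.48 CPM in KO and 77.6 ± 2.13 CPM in WT.

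Of 8 other Cajal-Retzius genes, 1 fell and 7 did not pass, with a median of −0.31. CXCR4, the receptor of the chemokine that holds Cajal-Retzius cells near the meninges, fell to 75.0 ± 12.9 CPM in KO, against 118 ± 18.6 CPM in WT (−0.66 ± 0.15, adjusted p = 0.0428). CXCR4 passed without KO replicate 3 or WT replicate 1 but not in the other 4 fits (0.0902 to 0.156). CALB2, encoding the calcium-binding protein calretinin, had 45.5 ± 15.9 CPM in KO and 32.2 ± 11.9 CPM in WT, and EBF3, a transcription factor of these cells, 50.2 ± 20.6 CPM in KO and 85.0 ± 26.7 CPM in WT (adjusted p = 0.462 and 0.307). None of 10 reelin receptors and signal transducers passed, with a median of −0.01. Among them LRP8, a reelin receptor, had 120 ± 6.15 CPM in KO and 139 ± 10.5 CPM in WT (adjusted p = 0.177), and DAB1, the adaptor that reelin receptors act through, 47.8 ± 11.2 CPM in KO and 56.9 ± 18.9 CPM in WT (0.644).

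Of 11 cortical hem and choroid plexus genes, 3 rose in KO, the signalling genes BMP6 (4.30 ± 0.825 CPM in KO, 1.76 ± 0.579 CPM in WT) and BMP7 (61.8 ± 15.6 CPM in KO, 28.0 ± 6.69 CPM in WT) and the homeobox gene MSX1 (35.4 ± 5.58 CPM in KO, 15.8 ± 5.40 CPM in WT). Their adjusted p-values were 0.0402, 0.0377 and 0.0467. BMP6 and MSX1 passed in the fit without WT replicate 1 alone, with adjusted p from 0.0569 to 0.145 and from 0.0757 to 0.133 in the others. BMP7 passed without KO replicate 3 or WT replicate 1 and not in the other 4 (0.0614 to 0.128). The hem and choroid plexus sum, most of it the choroid plexus transcript TTR, was 1703, 4564 and 3755 CPM in the KO libraries, against 423, 2407 and 1402 CPM in the WT libraries. Of 6 multiciliated cell genes, GMNC, which starts the multiciliated programme, rose to 7.19 ± 1.58 CPM in KO, against 1.76 ± 0.503 CPM in WT (2.03 ± 0.28, adjusted p = 0.00397), in all 6 fits that left out 1 library. The sum of the 6 was 86.1, 123 and 89.1 CPM in the KO libraries, against 51.6, 80.8 and 72.6 CPM in the WT libraries. TP73, like both sums, was highest in KO replicate 2 and lowest in WT replicate 1. The part of these cells in the TP73 level was not tested.

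The remaining lists held few calls. Of 10 tested paralogues of the 9 genes, ISL1 was the one past the threshold. BCL11A, the paralogue of BCL11B, had 119 ± 13.7 CPM in KO and 106 ± 22.9 CPM in WT (adjusted p = 0.556). FOXP1, a paralogue of FOXP2, had 34.5 ± 2.26 CPM in KO and 26.1 ± 4.95 CPM in WT (0.125). Of 9 LIM cofactors, LDB2 was the one past the threshold, and LMO4 had 81.8 ± 7.01 CPM in KO and 66.7 ± 2.94 CPM in WT (0.0893). Among retina genes, the pigment gene PMEL fell to 1.13 ± 0.545 CPM in KO, against 3.93 ± 1.30 CPM in WT (adjusted p = 0.0254), and passed without KO replicate 1 or WT replicate 1 but not in the other 4 fits (0.0761 to 0.0846). None of 5 neuroepithelium genes and neither the 1 pluripotency gene tested nor any epidermis gene, of which none reached the filter, passed.

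The genes whose profile over the 6 human libraries was nearest to that of BCL11B, among 12235 of mean CPM 5 or more, were ZNF75A, CRYZ and CHRDL1, with root mean square differences of centred log2 CPM of 0.0816, 0.101 and 0.114. For FOXP2 they were SLC1A3, TNC and CRYZ, at 0.222, 0.252 and 0.253. CRYZ, the gene near both, had 29.3 CPM in KO and 12.1 CPM in WT. Since BCL11B and FOXP2 differ between the groups, genes near them differ as well, and no test is attached to this order.

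In mouse organoids at day 6, none of the 9 orthologues was called between N2NL and EV, where 2 of 16682 genes tested, or 0.0120%, were called. At an unadjusted p under 0.05 there were 3 (33.3%), Fezf2, Tbr1 and Lhx9, against 7.45% of all genes. DESeq2 on the same genes called 1, Fezf2. Groups did not overlap for 3 (33.3%), Bcl11b, Fezf2 and Tbr1, all higher in N2NL, against 12.7% of all genes. The median log2 fold change was 0.15, against −0.00585 over all genes. These organoids are early: the pluripotency gene Pou5f1 was still at 132 ± 14.5 CPM in N2NL and 121 ± 10.98 CPM in EV. Neurod6, of the dorsal telencephalon list, was near 0 at 0.0166 CPM in N2NL and 0.0181 CPM in EV. General neuron genes were nevertheless expressed, as the 14 pan-neuronal genes summed to 967 to 1119 CPM in N2NL and 1144 to 1365 CPM in EV. The expressed human gene was not checked here.

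Mouse Fezf2 had 80.9, 81.8 and 75.2 CPM in the N2NL libraries, against 61.9, 59.1 and 59.4 CPM in the EV libraries. All N2NL libraries lay above all EV libraries, by more than the spread within either group. N2NL averaged 79.3 ± 3.57 CPM and EV 60.1 ± 1.51 CPM, a log2 fold change of 0.40 ± 0.07, with an adjusted p of 0.117 by edgeR and of 0.0168 by DESeq2. With no filter on low counts edgeR gave Fezf2 an adjusted p of 0.00226, and the authors' deposited table gives 0.00172. Mouse Tbr1 had 15.9, 15.9 and 17.7 CPM in the N2NL libraries, against 15.5, 12.3 and 11.1 CPM in the EV libraries. EV replicate 1 came close to the N2NL libraries, and the log2 fold change was 0.35 ± 0.13 (adjusted p = 0.599). Bcl11b had 4.98, 5.05 and 4.67 CPM in the N2NL libraries, against 4.56, 4.36 and 3.32 CPM in the EV libraries, with a log2 fold change of 0.27 ± 0.18 (adjusted p = 0.812). Foxp2 had 5.53, 4.75 and 6.15 CPM in the N2NL libraries, against 5.48, 6.82 and 5.72 CPM in the EV libraries, with a log2 fold change of −0.13 ± 0.17 (adjusted p = 0.908). Neither Bcl11b nor Foxp2 exceeded 6.82 CPM in any mouse library.

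**Figure D4:**
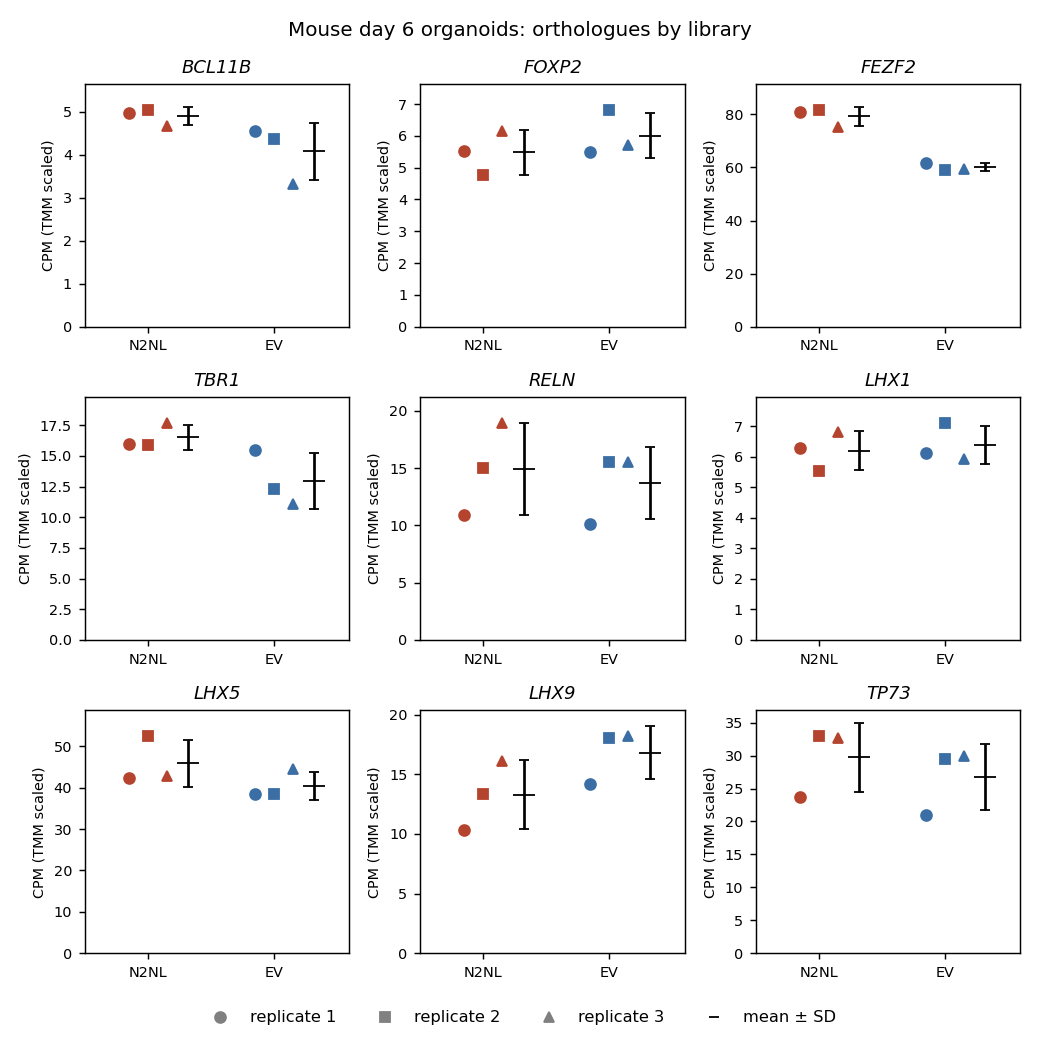
CPM (y axis, TMM scaled) of the 9 mouse orthologues in the 3 N2NL libraries (left, red) and the 3 EV libraries (right, blue) of day 6 organoids, with 1 point per library and the mean ± SD as a bar. FEZF2, at 75.2 to 81.8 in N2NL and 59.1 to 61.9 in EV, shows the clearest separation, and none passed the edgeR threshold.

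Among the Cajal-Retzius orthologues, Reln had 10.9, 14.98 and 18.9 CPM in the N2NL libraries, against 10.1, 15.5 and 15.5 CPM in the EV libraries (log2 fold change 0.11 ± 0.22, adjusted p = 0.953). Trp73, the mouse TP73, had 23.7, 32.9 and 32.6 CPM in the N2NL libraries, against 21.0, 29.5 and 29.9 CPM in the EV libraries (0.15 ± 0.16, adjusted p = 0.893). Replicate 1 was the lowest library of both groups for Reln, Trp73 and Lhx9. Lhx9 had 10.4, 13.4 and 16.2 CPM in the N2NL libraries, against 14.2, 18.0 and 18.2 CPM in the EV libraries, with a log2 fold change of −0.35 ± 0.16 (adjusted p = 0.671). Lhx1 averaged 6.20 ± 0.642 CPM in N2NL and 6.38 ± 0.634 CPM in EV, and Lhx5 45.9 ± 5.70 CPM in N2NL and 40.5 ± 3.39 CPM in EV (adjusted p = 0.980 and 0.740). For Reln and Lhx1, and in 1 fit for Trp73, leaving out 1 library turned the sign.

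No gene of the 17 lists was called by edgeR in mouse with all libraries. The summed level of the 11 dorsal telencephalon genes lay higher in every N2NL library, at 485 to 495 CPM, than in any EV library, at 392 to 408 CPM, with 7 of 9 tested genes above 0 and a median log2 fold change of 0.31. Lhx2, a LIM homeodomain factor of cortical progenitors, had 104 ± 10.7 CPM in N2NL and 74.4 ± 4.88 CPM in EV (adjusted p = 0.116 by edgeR, 0.00542 by DESeq2, and from 0.0471, without EV replicate 1, to 0.999 in the edgeR fits that left out 1 library). The part of telencephalic cells in the Fezf2 and Tbr1 levels was not tested. All 14 pan-neuronal genes were below 0, with sums of 967 to 1119 CPM in N2NL and 1144 to 1365 CPM in EV. DESeq2 called Gap43, Stmn2 and Nefl lower in N2NL (adjusted p = 0.00542, 0.0455 and 0.0168). By edgeR with all libraries they did not pass (0.116, 0.222 and 0.456). Of the edgeR fits that left out 1 library, they passed only in that without EV replicate 1 (0.0478, 0.0206 and 0.0458). Of 8 other Cajal-Retzius genes, 5 were below 0, and Nhlh2, a helix-loop-helix factor, had 23.5 ± 4.18 CPM in N2NL and 31.8 ± 3.71 CPM in EV (adjusted p = 0.456). Of 12 other deep-layer genes, 8 were above 0, and Nr4a2, a nuclear receptor gene, had 28.8 ± 2.92 CPM in N2NL and 22.2 ± 1.16 CPM in EV (0.390).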

How the data were processed

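For each species the authors deposited raw counts by Ensembl identifier, together with their own DESeq2 comparison. GRCh38 and GRCm38 are the builds in the submitters' processing notes, and the tools listed there, without roles, are DESeq2 2.11.39, HTSeq 0.6.1p1, STAR 2.4.0, Trimmomatic 0.36 and Bowtie2 2.3.3.1. From the authors' deposited tables, a log2 fold change and an adjusted p-value per gene are quoted, and 12 columns of normalized values per sample were not used. Lines of the mouse counts that name no gene were left out, with 26.6% to 33.7% of reads aligned to several places and 5.77% to 6.50% outside genes.

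Genes were kept by filterByExpr in edgeR 4.0.16 (R 4.3.3), scaled by TMM and tested with robust quasi-likelihood F tests: KO against WT and N2NL against EV were fitted separately without covariates, with Benjamini-Hochberg adjustment over all genes tested. The standard error is the log2 fold change divided by the square root of F. The procedure was tested on simulated data. The alternatives were RLE factors, library size alone, no filter, DESeq2 1.42.0, a replicate block and leaving out each library. Total counts were 15381409 to 16382938 in human and 16781742 to 20960391 in mouse. The limit that a count of 0 allows, set at 3 counts and covering counting error alone, was at most 0.195 CPM in human and 0.179 CPM in mouse libraries. Libraries of a group differed beyond sampling noise (chi-square per degree of freedom of at least 4.24). With 3 libraries against 3, the smallest two-sided p of an exact permutation test is 0.1.

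The genes and the 17 lists were chosen with earlier results of these data known. All genes of the set, listed genes past the threshold or else some with a large difference, the 3 nearest profiles of each called gene, and transcripts named after the genes are named. SOX5, TLE4, CALB2, LRP8, DAB1, BCL11A, FOXP1, GAD1, GAD2, PENK, LBX1, EN1, NKX2-2 and, in mouse, Pou5f1 and Neurod6 were added for their known roles with values seen. MEIS2, ELAVL4, DCX and mouse Tubb3 and Dcx were added for their levels, also with values seen. Positions are from GENCODE release 29. RefSeq promoter entries are shown for BCL11B and FOXP2 alone, and none was available here for LHX1, LHX5 and FEZF2. All 160 mouse matches were made by gene description, and no mouse annotation was used here. Some listed genes are not reported here.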

Additional observations from a re-analysis of the deposited data

How the results depend on the processing

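Of the 9 genes, 2 were called between KO and WT in human organoids. RLE factors, library size alone and the replicate block gave 2, and DESeq2 and no filter gave 3, with LHX9 added. Leaving out 1 library gave 0 to 3: 1 without KO replicate 1, 1 without KO replicate 3 and 0 without WT replicate 3. In mouse, none was called, and DESeq2 and no filter on low counts each gave 1, Fezf2. Leaving out 1 library gave 0 in each of the 6 mouse fits. The cause of these shifts was not tested. Leaving out 1 library turned signs, none of them called: for human TBR1 (range −0.33 to 0.25) without KO replicate 3 (0.22) and without WT replicate 1 (0.25), for mouse RELN (−0.0914 to 0.30) without N2NL replicate 3 (−0.09) and without EV replicate 1 (−0.06), for mouse LHX1 (−0.11 to 0.0441) without N2NL replicate 2 (0.03) and without EV replicate 2 (0.04), and for mouse TP73 (−0.000578 to 0.28) without EV replicate 1.

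The correlations of deviations between libraries of the same replicate number were mixed (0.216, −0.113 and 0.126 in human, 0.143, 0.0159 and −0.00485 in mouse), with 3 of 6 over 0.1, and not every library correlated best with its own number, so the numbers are not taken as pairs. With the replicate block, calls among the 9 genes numbered 2 in human and 0 in mouse. DLX6, PAX8, CXCR4 and TUBB3 were then not past the threshold (adjusted p = 0.0684, 0.0644, 0.0659 and 0.0575), and mouse LHX2, GAP43 and NEFL were (0.0337, 0.0487 and 0.0107). Calls over all genes with this block were 431 higher and 468 lower in human and 8 higher and 13 lower in mouse. With 3 libraries a group and 1 line each, the spread within groups limited how small a change of FEZF2, TBR1, LHX1, LHX5 or TP73 could be detected in human organoids.

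Library size alone gave 454 higher and 455 lower calls over all human genes, against 391 higher and 541 lower with TMM factors. DESeq2 called 612 higher and 797 lower in human and 18 higher and 9 lower in mouse. Without a filter on low counts, 957 were higher and 1198 lower in human and 79 higher and 38 lower in mouse. At nearly the same log2 fold change, that setting took the edgeR adjusted p of human BCL11B from 0.00662 to 2.1e-24 and that of FOXP2 from 0.0400 to 2.1e-15. Its adjusted p-values are therefore not on the footing of the filtered fits. Over the 6 fits that left out 1 library, human calls ran from 94 higher and 130 lower, without WT replicate 3, to 661 higher and 779 lower, without WT replicate 1.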
